A study of Homo sapiens with 6 samples.

Results

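SKOV3 and A2780s are established human ovarian cancer cell lines, and here the control cells of each were compared gene by gene. The study placed RNA of modified clones and of their controls (Ctrl) together on Agilent Whole Human Genome arrays, one RNA in Cy3 and the other in Cy5. The Ctrl channel of every array was kept, which gave 6 of the 12 channels in the series, 4 of SKOV3 Ctrl and 2 of A2780s Ctrl. SKOV3 Ctrl is a stable mock clone, for which the protocol names the pLKO.1-puro vector with a scramble sequence and puromycin selection. It was hybridized against sh-S1 on 2 arrays and against sh-S2 on 2 arrays, both labelled as clones with Hic-5 knocked down, in Cy3 on one array of each clone and in Cy5 on the other. A2780s Ctrl carries the empty pCMV6 vector, was selected with neomycin, and was hybridized in each dye once against the clone pCMV-Hic-5. The lines therefore also differ in vector and selection agent. No treatment or time point distinguished the groups. The labels give one growth medium for both lines, whereas the study's methods speak of differing media for its cell lines, so a part of the medium in the differences was not tested.

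Each line is represented by 1 Ctrl RNA, so the channels of a line repeat the labelling and the hybridization and not the culture, and no p-value is given. The 4 SKOV3 arrays lie on 1 slide with 1 scan and the 2 A2780s arrays on another, so slide and line cannot be told apart. Nor can fewer cells that express a gene be told apart from less RNA per cell.

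As background, both lines are used as models of epithelial ovarian cancer, but they are known to be very different cells. SKOV3 was derived from ascites and carries an amplified ERBB2 locus. PAX8 is a transcription factor of the Mullerian duct lineage that many ovarian carcinomas retain, KRT18 is a keratin of simple epithelia, ERBB2 is the receptor tyrosine kinase HER2, and FN1 is the matrix protein fibronectin.

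A level is the log2 intensity of a probe after background correction and quantile normalization over the 6 Ctrl channels. A difference is SKOV3 Ctrl minus A2780s Ctrl, taken within Cy3 and within Cy5 and then averaged over the dyes. It is printed with the standard deviation (SD) over the 4 pairs of same-dye channels, which share their RNAs and measure technical spread alone. Pairs within a dye also share their A2780s Ctrl channel, so the spread of A2780s Ctrl within a dye was not measured. A gene was called when the average difference reached 2-fold and had the same sign in both dyes. Of 18715 genes on the array, 15858 were measured. These were well above background in every kept Ctrl channel of at least 1 line and had a difference in both dyes.

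The Ctrl channels were not equally bright. The median signal over local background was 504 and 529.7 in the SKOV3 Ctrl Cy3 channels but 17.9 and 25.2 in the SKOV3 Ctrl Cy5 channels, against 324 in Cy3 and 439 in Cy5 for A2780s Ctrl. The SKOV3 Ctrl channels differed from each other at least 2-fold in 18 genes (0.114%) in Cy3 and in 522 genes (3.31%) in Cy5. The line differences measured in Cy3 and in Cy5 correlated with r = 0.865 across 15858 genes that share the same RNAs and arrays, and 12278 genes had the same sign in both dyes.

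The 4 genes chosen to mark the lines were all higher in SKOV3 Ctrl. FN1 gave levels of 13.71 and 13.91 in the SKOV3 Ctrl Cy3 channels and 13.13 and 13.07 in Cy5, against 6.08 and 6.11 in A2780s Ctrl. It was not well above background in either A2780s Ctrl channel, so it is given as at least 140.4-fold higher in SKOV3 Ctrl. Such a bound replaces a dim channel by the weakest signal that still passed the background test there, where the probe itself read lower. Otherwise the measured level was kept, so the bounds of G0S2, F3, CLDN1 and KLF15 below equal their measured folds. Every fold given as at least holds for this normalization and probe, and is no lower limit over all settings. Over the alternative settings the smallest log2 difference was 5.08 for FN1 and 7.13 for IGFBP7, which lies below their bounds.

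KRT18 reached 15.20 and 15.30 in Cy3 and 14.65 and 14.05 in Cy5 in SKOV3 Ctrl, whereas A2780s Ctrl gave 9.65 and 9.59, a difference of 5.18 ± 0.55 or 36.4-fold. PAX8 was at 14.18 in both SKOV3 Ctrl Cy3 channels and at 13.93 and 13.58 in Cy5, against 8.90 in each A2780s Ctrl channel (5.07 ± 0.28, 33.5-fold). ERBB2 lay at 13.26, 13.30, 13.43 and 13.15 in SKOV3 Ctrl and at 10.81 and 10.30 in A2780s Ctrl (2.73 ± 0.32, 6.62-fold). For all 4 markers the channels of the lines did not overlap, which also held for 9625 of the 15858 measured genes. A further ERBB2 probe differed by 0.51 and a further FN1 probe by 2.80, so the size of these differences depends on the probe.

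Hic-5, the focal adhesion adaptor that the study set out to suppress in SKOV3 and to express in A2780s, is encoded by TGFB1I1. Its single probe was no lower in sh-S1 and sh-S2 (7.84 to 8.69) than in SKOV3 Ctrl (7.52 to 8.44) after normalization over 12 channels. The labelled knockdown was thus not seen, and the gene does not check which SKOV3 channels hold the Ctrl. In the Ctrl channels the probe gave 8.43 and 8.21 in Cy3 and 8.495 and 7.56 in Cy5 in SKOV3 Ctrl, and 11.94 in Cy3 and 13.90 in Cy5 in A2780s Ctrl. TGFB1I1 was thus 26.8-fold higher in A2780s Ctrl, with a difference of -4.75 ± 1.36 on the log2 scale. The difference was -3.62 in Cy3 and -5.88 in Cy5, and over 22 alternative settings it stayed between -5.88 and -3.62. On the A2780s arrays the other channel held RNA of the pCMV-Hic-5 clone, in which the same probe reached 16.1 and 17.0 after normalization over 12 channels. The part of that bright partner in the A2780s Ctrl level was not tested.

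**Figure D1:**
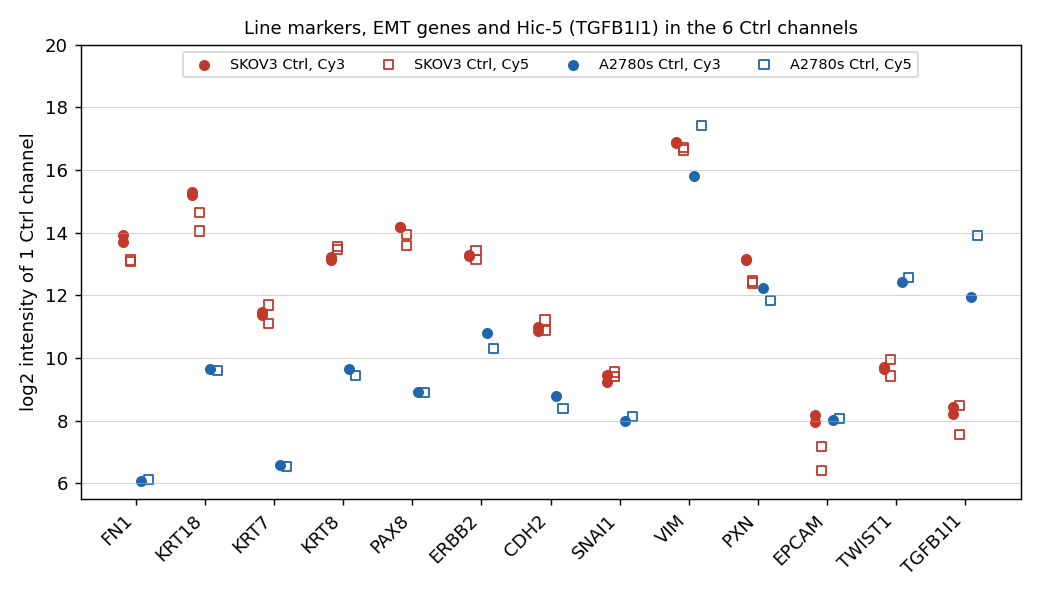
Levels (log2 intensity, vertical axis) of 13 genes in each of the 6 Ctrl channels. Red stands for SKOV3 Ctrl, blue for A2780s Ctrl, filled circles for Cy3 and open squares for Cy5. FN1, the keratins, PAX8, ERBB2, CDH2 and SNAI1 were higher in SKOV3 Ctrl, VIM overlapped, and TWIST1 and TGFB1I1 were higher in A2780s Ctrl.

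Across the genome, 3917 of the 15858 measured genes (24.7%) were called between the lines. Of these, 1874 (11.8%) were higher in SKOV3 Ctrl and 2043 (12.9%) were higher in A2780s Ctrl. The largest differences lay on the SKOV3 side: 238 genes were at least 8-fold higher in SKOV3 Ctrl and 111 in A2780s Ctrl, and at 32-fold the counts were 68 and 3. The channels of the lines did not overlap for 3904 of the called genes and for 9625 of the measured genes. Each fold is that of the brightest probe of its gene. Another measured probe existed for 1396 of the called genes, and 275 of these had a probe of opposite sign. On the log2 scale, another probe gave 1.48 for KRT8, 1.84 for IGFBP3, -1.18 for BMP7, -1.01 for HMGA2 and -0.08 for VCP. The median difference over all genes was -0.08. When each channel was centred on its median in place of quantile normalization, the median became -0.62 and the counts became 1401 higher in SKOV3 Ctrl and 6192 higher in A2780s Ctrl, so that the SKOV3 share of the calls went from 47.8% to 18.5%. Differences near 2-fold are therefore to be read relative to these medians. Counts of a gene list are likewise to be read against the counts over all genes in the same setting.

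**Figure D2:**
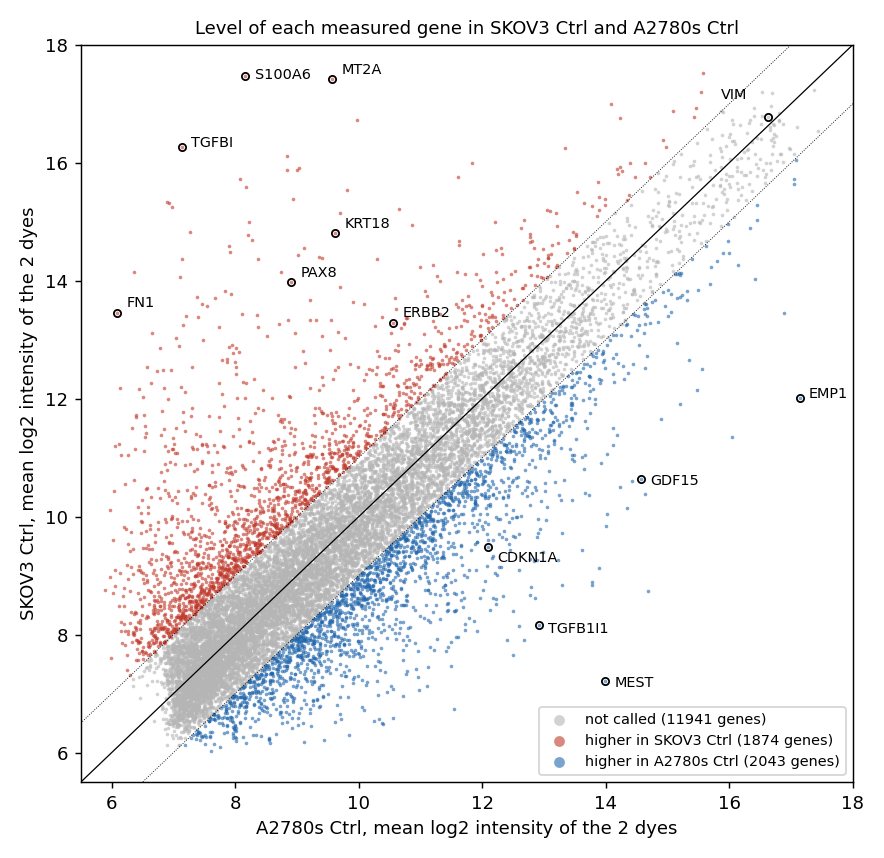
Mean level (log2 intensity) of each measured gene in A2780s Ctrl (horizontal axis) and SKOV3 Ctrl (vertical axis), each averaged over the dyes. The solid line marks equal levels and the dotted lines 2-fold, with 1874 called genes in red above and 2043 in blue below. S100A6, TGFBI, MT2A and FN1 lie far above the line, and MEST, EMP1 and TGFB1I1 lie far below it.

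S100A6, a small calcium-binding protein, had the largest difference among genes seen in both lines. It was at 17.43 and 17.51 in Cy3 and 17.51 and 17.39 in Cy5 in SKOV3 Ctrl and at 8.32 and 8.02 in A2780s Ctrl, a difference of 9.29 ± 0.17 or 628-fold. TGFBI, a secreted matrix protein induced by TGF-beta, followed with 16.29, 16.16, 16.26 and 16.35 against 6.97 and 7.30 (9.13 ± 0.16, 561-fold), the A2780s Ctrl being above background in 1 of its 2 channels. NNMT, which methylates nicotinamide, was 336-fold higher, C19orf33 348-fold, the antioxidant enzyme GPX1 199-fold and OCIAD2 189.7-fold. Each of these genes had non-overlapping channels, as did 3904 of the 3917 called genes, and an SD of at most 0.44. IGFBP7, a secreted binding protein of the insulin-like growth factor family, was at least 194.8-fold higher, and ARHGAP29, a GTPase-activating protein, at least 57.0-fold. The G0/G1 switch gene G0S2 was at least 62.5-fold higher and F3, the tissue factor that starts coagulation, at least 31.5-fold.

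The largest difference in the other direction was that of MEST, an imprinted gene of the hydrolase family. MEST lay at 6.99, 7.34, 6.33 and 8.22 in SKOV3 Ctrl, with 3 of 4 channels above background, and at 14.11 and 13.87 in A2780s Ctrl, a difference of -6.77 ± 0.81 or 109-fold. EMP1, an epithelial membrane protein, was at 11.83, 11.80, 12.14 and 12.28 against 17.62 and 16.65 (34.9-fold higher in A2780s Ctrl). CSH1, a placental lactogen with near-identical neighbours that the probe may not separate, was 61.5-fold higher in A2780s Ctrl, but its probes ranged from -6.59 to -0.30. CXXC4, an inhibitor of Wnt signalling, was 29.5-fold higher, RGS2, a regulator of G-protein signalling, 27.1-fold, and the netrin receptor UNC5B 27.0-fold. The costimulatory ligand CD86 was 27.7-fold higher and DACT3, another Wnt inhibitor, 22.5-fold, yet a second probe of CD86 differed by -0.05 and one of DACT3 by 0.71. UQCRH, a subunit of respiratory complex III, was 26.02-fold higher in A2780s Ctrl with a large SD of 1.104.

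Where SKOV3 Ctrl was not above background, the bounds were small. HOXC12, a homeobox gene, was at least 5.20-fold higher in A2780s Ctrl, and KLF15, a transcription factor, at least 4.78-fold. The PDGF receptor PDGFRB was at least 3.17-fold higher. Some printed folds rest on a dimmer line that passed the background test in part of its channels. This was 1 of 2 A2780s Ctrl channels for TGFBI, NNMT, CXCL1, ANXA3, IGFBP3, SOX17, KRT7, IRF7 and ITGA3. It was 2 or 3 of 4 SKOV3 Ctrl channels for MEST, CD86, UNC5B, LAMA1, POSTN, ISL1, MMP3, CXCL10, CXCL11, PKP1 and S100A1. Their folds are uncertain to that extent. SKOV3 Ctrl was not above background for 24 of the 2043 genes called higher in A2780s Ctrl, and A2780s Ctrl was not for 103 of the 1874 genes called higher in SKOV3 Ctrl.

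Keratins form the intermediate filaments of epithelia. Of 13 measured, 4 (30.8%) were higher in SKOV3 Ctrl, against 11.8% of all genes, and 0 in A2780s Ctrl, or 5 and 2 with median centring. The median difference was 0.47 against -0.08 over all genes. Besides KRT18, its partner KRT8 was 13.9-fold higher. KRT7, a keratin of glandular epithelia, read 11.38, 11.46, 11.10 and 11.69 in SKOV3 Ctrl and 6.59 and 6.54 in A2780s Ctrl, 28.7-fold. KRT15 was 2.78-fold higher. KRT19 was above background in all 4 SKOV3 Ctrl channels, but without a difference in both dyes it was not measured.

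Of 37 measured genes of epithelial junctions and polarity, 10 (27.0%) were higher in SKOV3 Ctrl and 2 (5.41%) in A2780s Ctrl, with a median of 0.38. The shares of all genes were 11.8% and 12.9%. The desmosomal plaque protein DSP was 45.5-fold higher in SKOV3 Ctrl, the protease inhibitor SPINT2 43.2-fold, the tight junction protein CLDN1 at least 23.99-fold, and plakophilin PKP3 17.6-fold. On the A2780s side, F11R, a junctional adhesion molecule, was 2.28-fold higher and PKP1 2.67-fold. CDH1, which encodes E-cadherin, was not well above background in every Ctrl channel of either line, with levels of 6.97, 6.89, 6.92 and 6.98 in SKOV3 Ctrl and 6.55 and 6.50 in A2780s Ctrl. EPCAM, an epithelial adhesion molecule, was at 8.17, 7.97, 6.40 and 7.18 against 8.02 and 8.08 and was not called.

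Mesenchymal genes were divided between the lines. Of 34 measured, 12 (35.3%) were higher in SKOV3 Ctrl and 13 (38.2%) in A2780s Ctrl, against 11.8% and 12.9% of all genes. The median of the list was -0.26. N-cadherin, encoded by CDH2, was at 10.99, 10.85, 11.21 and 10.88 in SKOV3 Ctrl and 8.78 and 8.38 in A2780s Ctrl (2.40 ± 0.34, 5.28-fold), and CDH6, another cadherin, was 21.8-fold higher. SNAI1, a transcription factor that represses E-cadherin, was at 9.45, 9.24, 9.40 and 9.55 against 7.98 and 8.14 (2.55-fold). TWIST1, a transcription factor of the same programme, lay the other way, with 9.64, 9.70, 9.96 and 9.43 against 12.42 and 12.56 (7.01-fold higher in A2780s Ctrl). VIM, the intermediate filament vimentin, was bright in both lines, with 16.87, 16.88, 16.72 and 16.64 against 15.81 and 17.43, and the channels overlapped. Collagen genes COL3A1 and COL5A2 were 15.5-fold and 8.46-fold higher in A2780s Ctrl, and POSTN, the matrix protein periostin, 14.5-fold. Another probe of COL3A1 differed by -1.42 and one of COL5A2 by -0.53.

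Focal adhesion genes were called about as often as all genes. Of 32 measured, TGFB1I1 included, 25 were not called, against 11941 of all 15858 genes, and 4 were higher in SKOV3 Ctrl and 3 in A2780s Ctrl, and with median centring 1 and 12. PXN, which encodes paxillin, the closest relative of Hic-5, was at 13.14, 13.17, 12.39 and 12.46 in SKOV3 Ctrl and 12.22 and 11.83 in A2780s Ctrl (1.70-fold, not called). The kindlin genes pointed in opposite directions, FERMT1 being 12.4-fold higher in SKOV3 Ctrl and FERMT2 4.41-fold higher in A2780s Ctrl. RHOC, a small GTPase, was 3.86-fold higher in SKOV3 Ctrl.

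Among 55 measured collagens, laminins and other matrix genes, 22 (40.0%) were higher in SKOV3 Ctrl and 10 (18.2%) in A2780s Ctrl (median 0.44). Over all genes these shares were 11.8% and 12.9%. Next to TGFBI and FN1, the laminin chain LAMB3 was 150.5-fold higher in SKOV3 Ctrl and the basement membrane collagen COL4A2 109.8-fold. LAMA1, by contrast, a laminin chain of early basement membranes, was 15.6-fold higher in A2780s Ctrl, though 1 of its 3 probes differed by 0.11. Of 19 integrins, which bind these proteins, 7 (36.8%) were higher in SKOV3 Ctrl and 1 (5.26%) in A2780s Ctrl. ITGA3, part of the laminin receptor, was 13.2-fold higher in SKOV3 Ctrl and ITGA6 5.17-fold, while ITGA1, part of a collagen receptor, was 2.76-fold higher in A2780s Ctrl. Among 36 proteases of the metalloproteinase and plasminogen systems and their inhibitors, 15 were higher in SKOV3 Ctrl and 8 in A2780s Ctrl, and with median centring 11 in each. They include the collagenase MMP1 (23.4-fold) and the urokinase gene PLAU (11.1-fold) on the SKOV3 side and the stromelysin MMP3 (5.03-fold) and SERPINF1 (5.63-fold) on the A2780s side.

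Calcium-binding proteins of the S100 and annexin families were also called more often in SKOV3 Ctrl, though for the annexins median centring gave 3 against 4. Of 14 S100 genes, 7 were higher in SKOV3 Ctrl and 1 in A2780s Ctrl, with a median of 1.02. S100A2 was 107.2-fold higher, S100A16 42.2-fold and S100A11 11.1-fold, whereas S100A1 was 3.30-fold higher in A2780s Ctrl. Of 11 annexins, which bind membranes in the presence of calcium, 4 (36.4%) were higher in SKOV3 Ctrl and 1 (9.09%) in A2780s Ctrl. ANXA1 was at 14.43 or above in every SKOV3 Ctrl channel and at 8.23 and 8.32 in A2780s Ctrl (6.42 ± 0.34, 85.8-fold), ANXA3 was 53.3-fold higher and ANXA2 7.52-fold. ANXA6 was 3.01-fold higher in A2780s Ctrl.

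**Figure D3:**
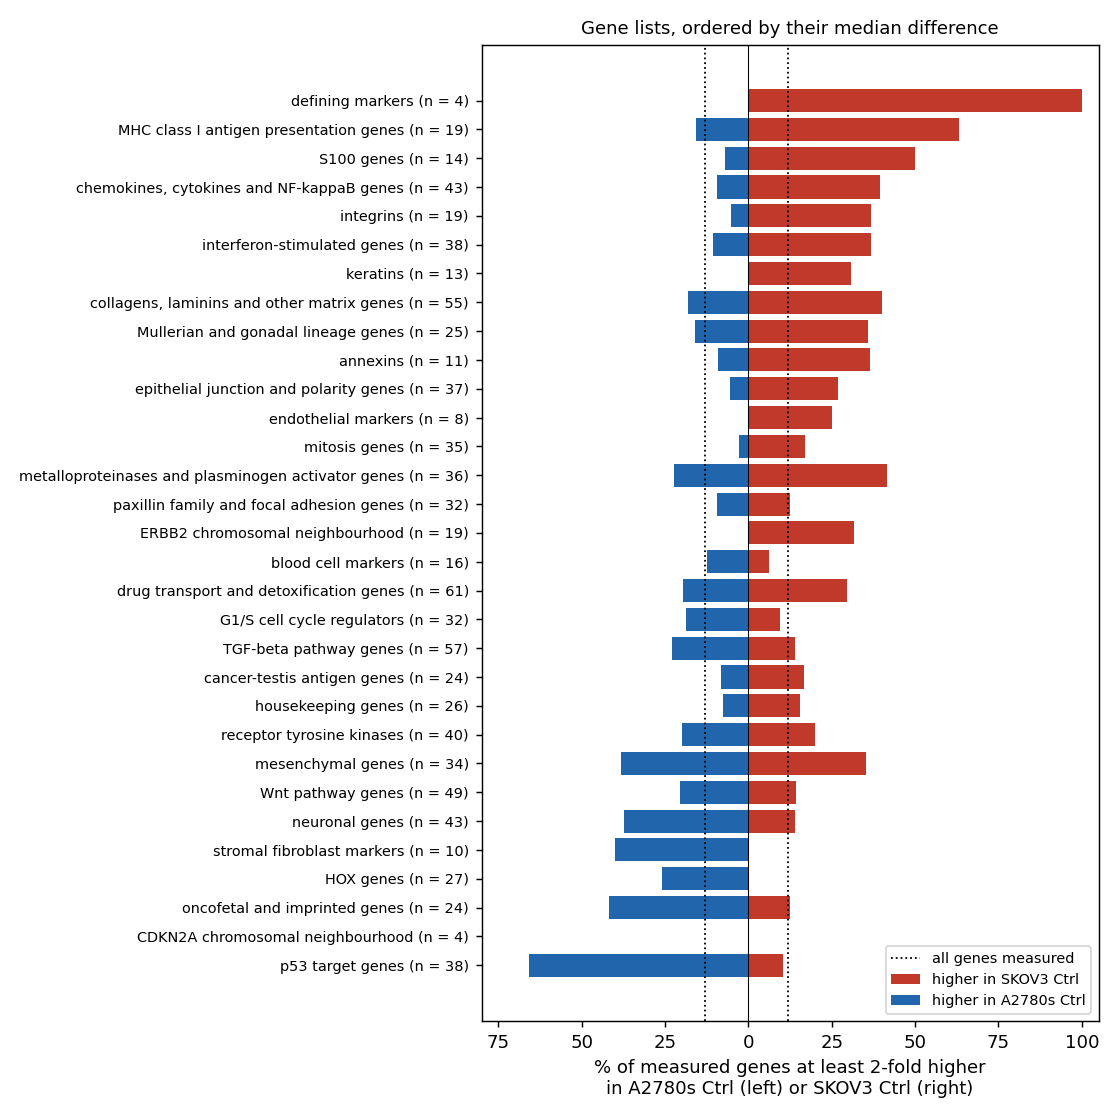
Share of the measured genes of each list (vertical axis, with the number measured) that were at least 2-fold higher in SKOV3 Ctrl (red, to the right) or in A2780s Ctrl (blue, to the left), in percent. The dotted lines give the same shares over all 15858 genes, 11.8% and 12.9%. The p53 target genes extend farthest to the left, and, after the 4 defining markers, the MHC class I genes farthest to the right.

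Among inflammatory and immune genes, more were called in SKOV3 Ctrl than in A2780s Ctrl, except that the interferon list was even with median centring. Of 43 measured chemokines, cytokines and NF-kappaB genes, 17 (39.5%) were higher in SKOV3 Ctrl and 4 (9.3%) in A2780s Ctrl, with a median of 0.77. The shares of all genes were 11.8% and 12.9%. CXCL1, a chemokine that attracts neutrophils, was at 15.07, 14.78, 15.39 and 15.76 against 7.05 and 6.90 (8.27 ± 0.50, 309.6-fold), CXCL2 was 12.5-fold higher, CXCL8 at least 9.67-fold, and complement component C3 8.91-fold. CXCL10 and CXCL11, chemokines induced by interferon, were 4.21-fold and 2.84-fold higher in A2780s Ctrl.

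Of 19 measured genes of MHC class I antigen presentation, 12 (63.2%) were higher in SKOV3 Ctrl and 3 (15.8%) in A2780s Ctrl, with a median of 1.32. The shares of all genes were 11.8% and 12.9%. HLA-F was 13.1-fold higher, the immunoproteasome subunit PSMB8 8.51-fold and HLA-G 7.44-fold. The HLA genes are close paralogs, so their probes may read one another. CALR and PDIA3, chaperones of the endoplasmic reticulum, were 2.06-fold and 2.12-fold higher in A2780s Ctrl, and PSME2 2.25-fold. With median centring the counts of this list became 6 and 3 and its median -0.12.

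The interferon-stimulated genes gave 14 of 38 (36.8%) higher in SKOV3 Ctrl and 4 (10.5%) in A2780s Ctrl (median 0.66), against 11.8% and 12.9% of all genes. IFI27 was at 13.70, 13.76, 13.43 and 13.39 against 7.71 and 7.39 (6.02 ± 0.03, 64.8-fold), and the transcription factor IRF7 was 20.2-fold higher. IFIT1 and IFIT2, which bind foreign RNA or act in antiviral defence, lay the other way and were 8.07-fold and 4.08-fold higher in A2780s Ctrl. Median centring gave 9 and 9 called genes for this list.

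Metallothioneins, small cysteine-rich proteins that bind zinc and copper, included the largest differences among the drug transport and detoxification genes. Of 61 measured genes of that list, 18 (29.5%) were higher in SKOV3 Ctrl and 12 (19.7%) in A2780s Ctrl, against 17 and 20 with median centring. The shares of all genes were 11.8% and 12.9%. MT2A was at 17.35 in both SKOV3 Ctrl Cy3 channels and at 17.43 and 17.51 in Cy5, against 9.60 and 9.55 in A2780s Ctrl, a difference of 7.84 ± 0.11 or 228-fold. MT1L was 170.3-fold, MT1H 155-fold and MT1G 130.4-fold higher. MT1X was 116.8-fold and MT1B 87.7-fold higher, whereas MT1F was not called (-0.15). The last 3 were named after their values were seen. These genes are near-identical neighbours on chromosome 16, and whether the probe of one also binds RNA of another was not tested. On the A2780s side, GSTT2 and GSTA4, glutathione transferases, were 8.77-fold and 7.56-fold higher, the mitochondrial dehydrogenase ALDH2 7.45-fold and the transporter ABCB6 4.43-fold.

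Because most metallothionein genes were higher in the same line, the 250 bases before the start of the 4 that the RefSeq promoter table holds, of 10 looked up, are shown here (GRCh38.p14, plus strand, 5′ to 3′). Capitals mark the core of the metal response element, to which the zinc-sensing factor MTF1 is known to bind, searched as TGCGCNC and TGCACNC on both strands. MT2A lies at chr16:56608334-56608583 with 7 matches, MT1B at chr16:56651636-56651885 with 3, MT1H at chr16:56669564-56669813 with 8, and MT1X at chr16:56682220-56682469 with 4. At least 1 match was found in 24.8% of 35116 windows of this length in the table, and at least 4 in 0.37%. A match describes the letters and does not show binding.
MT2A: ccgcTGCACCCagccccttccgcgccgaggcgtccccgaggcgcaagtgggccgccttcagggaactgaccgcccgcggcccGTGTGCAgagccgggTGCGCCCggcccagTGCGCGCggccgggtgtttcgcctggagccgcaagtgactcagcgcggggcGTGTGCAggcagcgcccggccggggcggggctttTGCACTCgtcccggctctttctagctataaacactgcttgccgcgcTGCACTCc
MT1B: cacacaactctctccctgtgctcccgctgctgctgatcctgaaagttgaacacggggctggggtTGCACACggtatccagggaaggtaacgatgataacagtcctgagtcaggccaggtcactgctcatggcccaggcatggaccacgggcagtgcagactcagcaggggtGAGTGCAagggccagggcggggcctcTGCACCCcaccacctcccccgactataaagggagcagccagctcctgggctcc
MT1H: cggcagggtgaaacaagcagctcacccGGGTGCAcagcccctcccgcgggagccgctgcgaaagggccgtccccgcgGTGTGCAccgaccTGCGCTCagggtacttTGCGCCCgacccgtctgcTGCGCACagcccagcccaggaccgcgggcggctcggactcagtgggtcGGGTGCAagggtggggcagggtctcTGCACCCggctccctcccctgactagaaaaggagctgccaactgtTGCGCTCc
MT1X: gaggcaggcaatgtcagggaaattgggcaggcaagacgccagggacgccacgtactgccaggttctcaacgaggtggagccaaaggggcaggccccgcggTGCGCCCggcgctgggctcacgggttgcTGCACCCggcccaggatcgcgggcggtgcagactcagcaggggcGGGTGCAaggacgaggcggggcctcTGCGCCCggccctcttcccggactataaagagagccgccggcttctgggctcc

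The group with the largest share called in A2780s Ctrl was that of p53. The tumour suppressor p53 is a transcription factor that activates genes of cell cycle arrest, DNA repair and apoptosis. Of 38 measured genes on the p53 target list, 25 (65.8%) were higher in A2780s Ctrl and 4 (10.5%) in SKOV3 Ctrl, with a median of -1.54. The shares of all genes were 12.9% and 11.8%. CDKN1A, the cell cycle inhibitor p21, was at 9.70, 8.97, 9.93 and 9.37 in SKOV3 Ctrl and 11.82 and 12.38 in A2780s Ctrl (-2.61 ± 0.40, 6.09-fold). GDF15, a stress-induced cytokine, was at 10.33, 10.23, 10.85 and 11.15 against 14.15 and 14.99 (-3.93 ± 0.15, 15.2-fold). FDXR, a mitochondrial reductase, was 9.52-fold higher in A2780s Ctrl, the metabolic regulator TIGAR 9.04-fold and the phosphatase PPM1D 8.51-fold. MDM2, the ubiquitin ligase of p53, was 4.79-fold higher (named after its value was seen).

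Among the same genes, 4 lay on the SKOV3 side. The desmosomal gene PERP was 63.9-fold higher in SKOV3 Ctrl, IGFBP3 49.3-fold and the kinase PLK2 16.9-fold. SPATA18 was 3.67-fold higher by its brightest probe, while another of its probes differed by -2.34. With median centring the p53 list had 31 genes higher in A2780s Ctrl and 4 in SKOV3 Ctrl. In that setting 6192 of all 15858 genes were called higher in A2780s Ctrl.

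**Figure D4:**
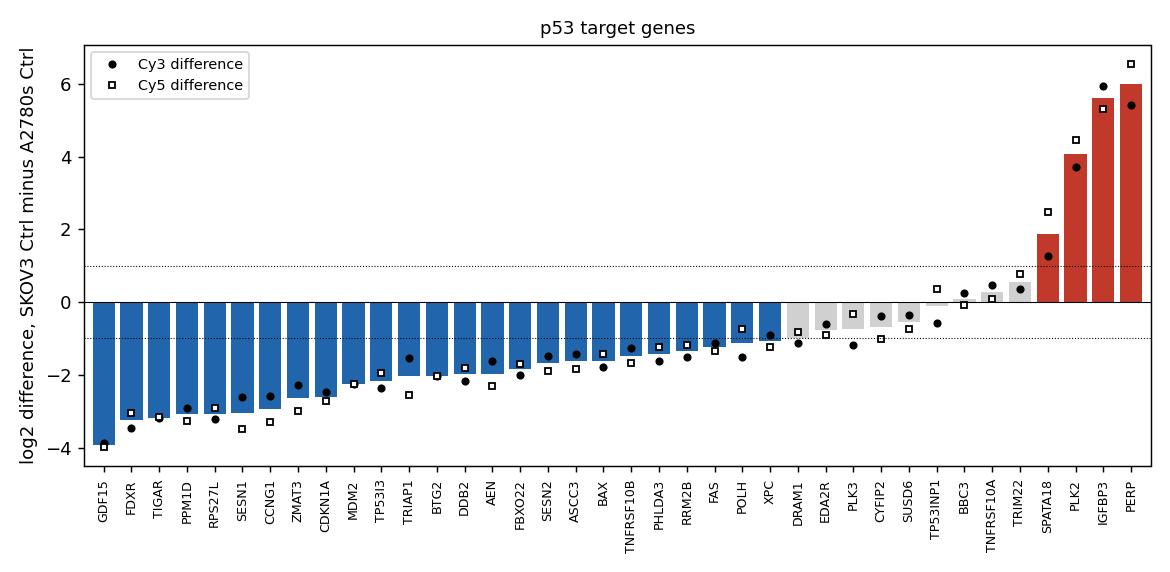
Difference of each measured p53 target gene (log2, SKOV3 Ctrl minus A2780s Ctrl), as the mean of the dyes (bars), in Cy3 (filled circles) and in Cy5 (open squares). Blue bars mark the 25 genes higher in A2780s Ctrl, red bars the 4 higher in SKOV3 Ctrl and grey bars genes that were not called. The dotted lines mark 2-fold.

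Regulators of the G1/S transition were also called near the rate of all genes, with 3 of 32 higher in SKOV3 Ctrl and 6 in A2780s Ctrl, or 1 and 18 with median centring. CDK6, the kinase partner of D-type cyclins, was at least 37.2-fold higher in SKOV3 Ctrl, and E2F1 was 3.65-fold higher. CCND2, a D-type cyclin, was 4.56-fold higher in A2780s Ctrl, and the inhibitor CDKN1B 3.26-fold. RB1, the retinoblastoma gene, was 2.28-fold higher in SKOV3 Ctrl by its brightest probe but differed by -0.12 in another and by -0.19 with median centring. CDKN2A, which encodes p16, was at 9.73 and 9.60 in Cy3 and 9.84 and 11.13 in Cy5 in SKOV3 Ctrl and 10.90 and 11.01 in A2780s Ctrl, and was not called, while another of its probes differed by -2.13. Its measured neighbours MTAP, KLHL9 and DMRTA1 differed by -0.38, -0.98 and -0.27. Of these 4 genes, 0 were called, but 2 were called higher in A2780s Ctrl with median centring and 1 with the processed signals. Of 35 mitosis genes, 6 (17.1%) were called higher in SKOV3 Ctrl and 1 (2.86%) in A2780s Ctrl, against 11.8% and 12.9% of all genes. With median centring the mitosis counts became 0 and 16, where 6192 of all 15858 genes were higher in A2780s Ctrl.

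The neighbourhood of ERBB2 on chromosome 17 was examined because the locus is known to be amplified in SKOV3. Of 19 measured genes, 6 (31.6%) were higher in SKOV3 Ctrl, against 11.8% of all genes, and 0 in A2780s Ctrl, with a median of 0.23. With median centring, however, the counts were 4 and 3 and the median 0.00398, against -0.62 over all genes. Beside ERBB2, the genes called with quantile normalization were PGAP3 (4.38-fold), MIEN1 (2.54-fold, but -0.22 on the log2 scale with median centring), ORMDL3 (2.54-fold), PPP1R1B (2.40-fold) and STARD3 (2.21-fold). GRB7, an adaptor protein and close neighbour of ERBB2, differed by -0.18 and was not called. Among 40 receptor tyrosine kinases, 8 were higher in each line, and with median centring 9 in SKOV3 Ctrl and 13 in A2780s Ctrl. MET, the receptor of hepatocyte growth factor, was between 11.84 and 12.11 in SKOV3 Ctrl against 8.17 and 7.88 (15.8-fold higher in SKOV3 Ctrl), and AXL 13.2-fold. ERBB4, a further member of the ERBB family, was 7.08-fold higher in A2780s Ctrl, and the collagen receptor DDR2 3.98-fold. The probes of MET disagreed, with the smallest difference at 0.11.

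Genes of the Mullerian and gonadal lineages were called in both directions, 9 of 25 in SKOV3 Ctrl and 4 in A2780s Ctrl (median 0.42). With PAX8, the transcription factors MECOM and SOX17 were 33.6-fold and 31.2-fold higher in SKOV3 Ctrl, and GATA6 at least 10.4-fold. A second SOX17 probe differed by -0.62. NR2F1, a nuclear receptor, was at 10.10, 9.55, 10.31 and 10.21 in SKOV3 Ctrl and 13.92 and 14.12 in A2780s Ctrl (15.7-fold higher in A2780s Ctrl). FOXL2, a transcription factor of granulosa cells of the ovary, was 6.77-fold higher in A2780s Ctrl, and the homeobox gene MEIS1 3.93-fold.

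With quantile normalization, developmental genes were called mainly on the A2780s side. Of 24 measured oncofetal and imprinted genes, 10 (41.7%) were higher in A2780s Ctrl and 3 (12.5%) in SKOV3 Ctrl (median -0.62). With MEST, the stem cell factor SALL4 was 11.9-fold higher in A2780s Ctrl, the chromatin protein HMGA2 10.3-fold and the RNA-binding protein IGF2BP1 9.31-fold. PHLDA2 and HMGA1 were 4.404-fold and 3.85-fold higher in SKOV3 Ctrl. Of 43 neuronal genes, 16 were higher in A2780s Ctrl and 6 in SKOV3 Ctrl, the former with the neurofilament gene NEFH (12.2-fold), ISL1 (10.8-fold) and DLX1 (9.39-fold) and the latter with DPYSL3 (12.7-fold) and MAP1B (7.21-fold). Of 27 HOX genes, which set position along the body axis, 7 (25.9%) were called in A2780s Ctrl and 0 in SKOV3 Ctrl. HOXC13 was 12.8-fold, HOXC9 6.33-fold and HOXB5 4.02-fold higher. The A2780s count of HOX genes was 17 with median centring and 13 with the processed signals. Over all 15858 genes the A2780s counts in these settings were 6192 and 2976.

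Wnt pathway genes were 7 higher in SKOV3 Ctrl (14.3%) and 10 higher in A2780s Ctrl (20.4%) of 49 measured, against 6 and 17 with median centring. Over all genes the shares were 11.8% and 12.9%, and with median centring 6192 of 15858 genes were higher in A2780s Ctrl. The receptor FZD8 was 14.5-fold, KREMEN2, a coreceptor of the inhibitor DKK1, 12.99-fold and DKK1 itself 9.98-fold higher in A2780s Ctrl, while DKK3 and the receptor FZD6 were 17.4-fold and 6.53-fold higher in SKOV3 Ctrl. Of 57 TGF-beta pathway genes, 8 were higher in SKOV3 Ctrl and 13 in A2780s Ctrl, against 6 and 20 with median centring. TGFBR2, a receptor for TGF-beta, was 30.3-fold higher in SKOV3 Ctrl, the pseudoreceptor BAMBI 46.3-fold and the activin subunit INHBA 10.8-fold. The ligand BMP7 was 21.9-fold higher in A2780s Ctrl, and ID2 and ID4, targets of BMP signalling, 8.86-fold and 5.59-fold. Among 24 cancer-testis antigen genes, 4 were higher in SKOV3 Ctrl (16.7%) and 2 in A2780s Ctrl (8.33%). SPANXB1 and SPANXA1, near-identical genes on the X chromosome, were 124-fold and 95.4-fold higher in SKOV3 Ctrl.

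Reference genes and markers of other cell types were also read. Of 26 housekeeping genes, 4 were higher in SKOV3 Ctrl (among them YWHAZ, VCP and PSMB2) and 2 in A2780s Ctrl (SNRPD3 and EMC7), with a median of -0.10. With median centring the counts became 0 and 14, PSMB2 turned to -0.52 and the median to -1.12. ACTB and GAPDH differed by -0.41 and 0.83 and were not called. Blood cell markers gave 1 of 16 higher in SKOV3 Ctrl and 2 in A2780s Ctrl, endothelial markers 2 and 0 of 8, and stromal fibroblast markers 0 and 4 of 10, the 4 being THY1, PDGFRA, PDGFRB and COL3A1. The part of other cells in any difference was not tested.

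The other channels of the same arrays were set beside the Ctrl channels, after normalization over all 12. FN1 was between 12.9 and 13.8 in SKOV3 Ctrl and at 6.06 and 6.10 in A2780s Ctrl, while RNA from the clones sh-S1 and sh-S2 gave 9.62 to 9.89 and pCMV-Hic-5 6.01 and 6.16. PAX8 lay between 13.4 and 14.1 in SKOV3 Ctrl, at 8.84 in A2780s Ctrl, and between 9.85 and 10.5 in sh-S1 and sh-S2. UQCRH was at 10.5 to 12.3 in SKOV3 Ctrl but at 16.1 to 16.6 in sh-S1 and sh-S2, near A2780s Ctrl (15.7 and 16.3).

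Of the genes called between the Ctrl RNAs, 52.8 to 67.6% were nearer to A2780s Ctrl than to SKOV3 Ctrl in sh-S1 and sh-S2, depending on clone, dye and direction. The share was 93.7 to 99.0% in pCMV-Hic-5. These genes were chosen with the Ctrl channels themselves, and the clones share their arrays with the Ctrl, so the shares describe the 12 channels and carry no test. What places the sh-S1 and sh-S2 RNAs between the lines was not tested, and the SKOV3 values above rest on the Ctrl channels alone.

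**Figure D5:**
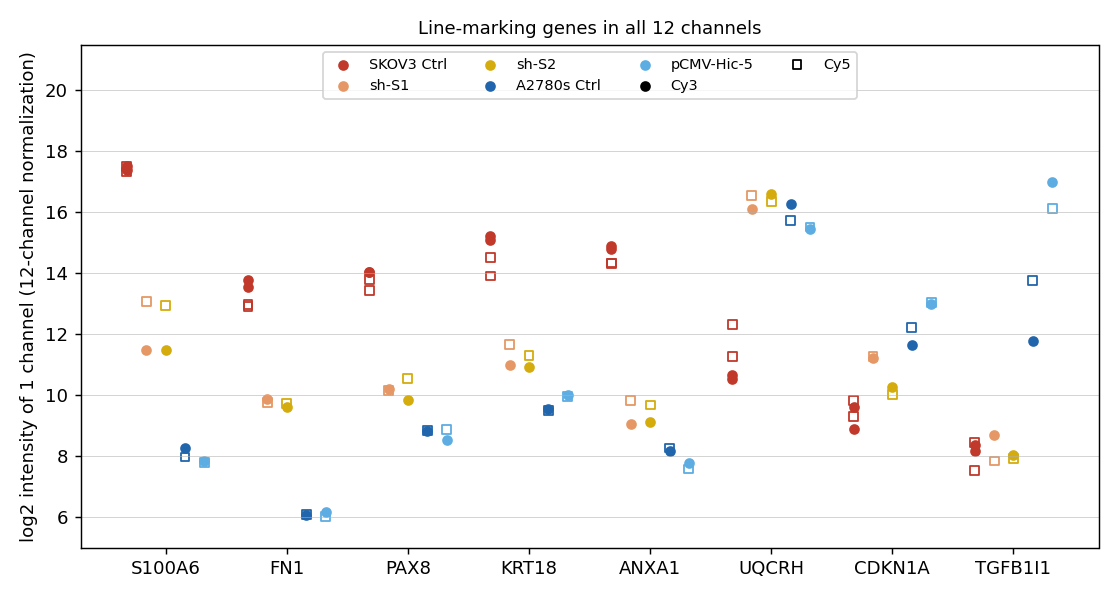
Levels (log2 intensity after normalization over 12 channels, vertical axis) of 8 genes in every channel of the 6 arrays. Colours stand for the 5 RNAs, filled circles for Cy3 and open squares for Cy5. For S100A6, FN1, PAX8, KRT18 and ANXA1, sh-S1 and sh-S2 lie between SKOV3 Ctrl and A2780s Ctrl, and for UQCRH they lie with A2780s Ctrl.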

How the data were processed

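Total RNA of the SKOV3 and A2780s Ctrl cells was labelled and hybridized on 6 two-colour arrays (1 RNA per line). The authors deposited spot intensities written by Agilent Feature Extraction, version 10.7.3.1 per the file headers and 8.5.1.1 in the submitters' processing notes, with the mean signal and the local background median in each dye and without normalization. Processed signal intensities, background-subtracted and dye-normalized by the authors' software, were used only as an alternative. The deposited log10 ratios of the dyes cancel the line comparison and were not used.

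From the intensities, background was corrected with normexp (offset 50, limma 3.58.1, R 4.3.3), log2 levels of the 6 Ctrl channels were quantile normalized, and spots of a probe were averaged. Control spots, outlier flags and 39 spots with a local background over 1000 on an A2780s array were left out, and saturated spots (16) were kept. Spots with a background flag were left out of the normexp fit. Of 41000 probes, 29226 carry a RefSeq accession and 28236 were named, with the brightest probe standing for a gene. Calls needed 2-fold on average and one sign in both dyes. The code of the rule was tried on simulated data with known folds and the spread of the SKOV3 Ctrl channels of each dye. Those data held no dye bias and no slide effect, so they do not show how accurate the calls are. Precision is limited by signal over background and by having 6 arrays. Replicates of a line are technical.

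Named genes were the 12 largest differences in each direction, the 10 largest bounds in each direction, up to 4 called members of each of 31 lists per direction, the defining markers, every member of the ERBB2 and CDKN2A neighbourhoods, the housekeeping genes and 9 further genes, among them TGFB1I1 and PXN. Members, lists and the rule were chosen with earlier results of these data known, and the filter on background spots was set after the data were seen. The alternatives covered normalization, background, filters, dyes, folds, probes and single arrays. Some genes are not reported here. Analyses ran in Python 3.11.15 with pandas 2.3.3.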

Additional observations from a re-analysis of the deposited data

Results flagged for a closer look

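Among 26 genes whose channel levels are described, the 4 SKOV3 Ctrl channels were searched for a channel far from the others, for which chance alone would give about 1 in 20. CDKN2A had 1 such channel, a Cy5 channel at 11.13 with the nearest other at 9.84. A count of 1 among 26 genes is near that rate. The 4 channels also span both dyes, and the SKOV3 Ctrl Cy5 channels were dim.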

How the results depend on the processing

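No paired analysis was possible because each line has 1 Ctrl RNA and its arrays are technical repeats. Over 22 alternatives, the counts higher in SKOV3 Ctrl and in A2780s Ctrl stayed within 1.5 times of 1874 and 2043 except in the following settings. Median centring gave 6192 higher in A2780s Ctrl, and raised the median gap between the SKOV3 Ctrl Cy3 channels from 0.114 to 0.204. A threshold of 1.5-fold gave 3420 and 4010 genes, and one of 4-fold gave 531 and 411, where 190 genes of the lists were called in place of 371. Leaving out single arrays gave 1728 to 2449 genes higher in SKOV3 Ctrl and 1995 to 2372 higher in A2780s Ctrl.

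Of 207 named genes that were called, 181 kept their call with median centring, 194 with the processed signals and 187 with 2-fold asked of each dye. Signs turned in 9 cases. With the mean over probes SPATA18 became -0.26. With median centring MIEN1 became -0.22, TUBB3 -0.23, KIF23 -0.23, RB1 -0.19, PSMB2 -0.52, RACGAP1 -0.43, BUB3 -0.52 and ANXA7 -0.46. The cause was not tested. With median centring the list medians also changed sign for the focal adhesion genes (-0.59), annexins (-0.03), MHC class I genes (-0.12), receptor tyrosine kinases (0.12), drug transport genes (-0.31), proteases (-0.22), G1/S regulators (-1.29), mitosis genes (-0.96) and cancer-testis antigens (0.28). With the loess scaling they did for the TGF-beta (0.04) and housekeeping (0.06) genes, and with the processed signals for the receptor tyrosine kinases (0.06), G1/S regulators (-0.10) and cancer-testis antigens (0.19). The dim SKOV3 Ctrl Cy5 channels limit what can be read of weak genes.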

Other observations

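Measured genes were also ordered along the chromosomes by probe position (hg19), and the median difference was taken over each run of 15 consecutive genes. The middle 95% of 15501 overlapping runs lay between -0.73 and 0.58. The runs named here were chosen after their values were seen. The highest, at chr16:56466556-56717957 from NUDT21 to MT1X, holds the metallothionein genes and had a median of 4.16, with 10 genes higher in SKOV3 Ctrl and 1 in A2780s Ctrl. At chr7:92234443-95034559, from CDK6 to PON2, the median was 1.18, and at chr1:153112641-153587065, which holds S100 genes, it was 1.102. A run at chr17:79640236-79890390, from CCDC137 to PYCR1, had a median of 1.22.

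The lowest run, at chr12:12508416-13369621, holds CDKN1B and EMP1 and had a median of -1.40, with 9 genes higher in A2780s Ctrl and 0 in SKOV3 Ctrl. A run at chr4:76834993-78087754, with CXCL10 and CXCL11, had a median of -1.38. The HOXC genes at chr12:54059077-54526390 gave -1.37, and a run at chr1:186641469-196748479, with RGS2 and its relatives, gave -1.26. Copy number was not measured here.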
